A study of Mus musculus with 6 samples.

Results

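Expression of HOX genes and of related homeobox and T-box genes was examined in podoplanin-positive cancer-associated fibroblasts (pCAFs) of mouse breast tumours. Members were taken by gene symbol from the deposited table: the HOX genes of clusters A to D, and the numbered genes of the Meis, Pbx, Msx, Dlx, Lhx, Pitx, Irx, Alx, Cux, Zfhx, Zhx, Tgif and Tbx families and the family of Six2. This gave 71 members of 12235 genes, 27 of them HOX genes and 44 others. The tumours grew from 4T1 mammary carcinoma cells, placed orthotopically, 100000 per fat pad, in BALB/c females aged 8 weeks. In 1 label the cells carry GFP and in another luciferase. Tumours were taken at about 1 cm, and both groups were sorted as live cells without Ter119, CD45 or EpCAM and with PDPN. They differ in the gate on the surface protein Ly6C, with 3 libraries of Ly6C+ and 3 of Ly6C- pCAFs. The labels do not say whether a library is 1 animal or a pool, so p-values measure the spread between these libraries. The sort defines the groups by a surface protein, and in such bulk samples fewer cells of a type and less RNA per cell cannot be told apart.

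HOX genes encode homeodomain transcription factors that lie in 4 clusters, A to D, and the order of the genes along a cluster mirrors the body level at which they act in the embryo. Genes with the same number in different clusters are paralogs. Adult fibroblasts keep much of the HOX pattern of the body site they came from, and PBX and MEIS proteins bind DNA together with HOX proteins. T-box, MSX and IRX factors pattern limbs, heart, skin and the mammary bud, where TBX3 and MSX proteins are known to act.

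The libraries were 3′ end mRNA libraries, which count transcript ends. The 3 Ly6C+ libraries held 2150531 to 2818269 reads and the 3 Ly6C- libraries 1176909 to 1721480. Values are normalised counts, that is reads divided by 1 size factor per library, and they are not divided by transcript length. Ly6c1, one of the genes of the sorted antigen, had a mean of 3102 ± 767 in Ly6C+ and 77.2 ± 11.5 in Ly6C- pCAFs (SD, n = 3), which checks the labels. The fibroblast list was high in both groups, with sums of 67779 to 76553 in Ly6C+ and 46904 to 61024 in Ly6C- libraries, and all 10 of its genes were present. In the test described below, 5 of the 10 were higher in Ly6C+ pCAFs (Pdgfra, Dcn, Col3a1, Pdpn and Lum) and Pdgfrb was lower, so fibroblast markers differed between the groups as well. Pdpn, the other sort gene, stood at 209 ± 24.1 and 95.4 ± 41.3. Of the genes sorted against, Epcam had at most 2.95 in any library and Ptprc (CD45) at most 4.88.

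Promoters are shown for the 3 called HOX genes with an entry in the RefSeq table for GRCm38.p6 (the assembly called mm10), for Msx1, and for Hoxa7 as a comparison. Each is the 250 bases before the start in that table, 5′ to 3′ on the strand of the gene. The windows of Hoxa9 and Hoxa7 lie inside the longer spans that GENCODE M21 gives these genes (chr6:52223100-52231089 and chr6:52214491-52221854), so they precede a start within the gene there. Hoxa5 (chr6:52204588-52204837, minus strand), Hoxa9 (chr6:52227371-52227620, minus strand), Hoxb8 (chr11:96281655-96281904, plus strand) and Msx1 (chr5:37824586-37824835, minus strand) were lower in Ly6C+ pCAFs. Hoxa7 (chr6:52218574-52218823, minus strand), from between Hoxa5 and Hoxa9, is shown as a neighbour with level values. Capitals mark matches to the motifs named after the sequences.
Hoxa5: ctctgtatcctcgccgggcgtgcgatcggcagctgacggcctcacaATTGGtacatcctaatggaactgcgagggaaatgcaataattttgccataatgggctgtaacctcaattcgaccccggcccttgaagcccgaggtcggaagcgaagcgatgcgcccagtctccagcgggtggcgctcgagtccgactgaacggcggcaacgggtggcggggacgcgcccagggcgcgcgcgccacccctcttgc
Hoxa9: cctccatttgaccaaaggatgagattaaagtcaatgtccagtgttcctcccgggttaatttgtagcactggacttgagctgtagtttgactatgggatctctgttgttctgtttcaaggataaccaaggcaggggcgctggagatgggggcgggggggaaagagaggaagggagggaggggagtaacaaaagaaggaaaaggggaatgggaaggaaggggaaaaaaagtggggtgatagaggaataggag
Hoxb8: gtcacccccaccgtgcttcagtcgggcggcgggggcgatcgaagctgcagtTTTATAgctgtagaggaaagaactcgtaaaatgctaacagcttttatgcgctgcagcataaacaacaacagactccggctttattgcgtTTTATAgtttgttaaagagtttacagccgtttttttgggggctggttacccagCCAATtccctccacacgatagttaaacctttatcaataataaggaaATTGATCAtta
Hoxa7: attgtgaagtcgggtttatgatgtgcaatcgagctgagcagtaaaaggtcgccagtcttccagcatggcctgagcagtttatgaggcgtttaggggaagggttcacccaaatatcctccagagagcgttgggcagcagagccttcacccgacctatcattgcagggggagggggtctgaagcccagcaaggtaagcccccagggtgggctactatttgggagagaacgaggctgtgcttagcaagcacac
Msx1: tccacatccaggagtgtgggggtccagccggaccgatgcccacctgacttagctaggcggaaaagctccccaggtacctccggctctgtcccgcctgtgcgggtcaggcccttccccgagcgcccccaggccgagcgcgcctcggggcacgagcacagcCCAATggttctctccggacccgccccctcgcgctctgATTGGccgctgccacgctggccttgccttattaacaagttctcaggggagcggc

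Motifs were searched on both strands: the PBX-HOX composite TGATNNAT, the MEIS site TGACAG, the T-box site GGTGTGA, the homeodomain core TAATTA, the RUNX site TGTGGT, the CCAAT box CCAAT and the TATA box TATAAA. In the Hoxb8 promoter a PBX-HOX match began 11 bases before the start, and in all 7.68% of the 32851 promoters in the table held one. A CCAAT box lay in the promoters of Hoxa5, Hoxb8 and Msx1, against 33.8% of all promoters. TATA box letters lay in that of Hoxb8, where 12.4% of all promoters held them. They began 199 and 110 bases before the start, both on the strand opposite to the gene. The Hoxa9 and Hoxa7 windows held none of the 7 motifs. The MEIS, T-box, homeodomain and RUNX motifs, which 15.9%, 3.33%, 4.84% and 14.05% of all promoters held, had no match in the 5 windows. These matches are letters, not binding sites. CpG pairs, the substrate of DNA methylation, numbered 28 in the Hoxa5, 3 in the Hoxa9, 12 in the Hoxb8, 7 in the Hoxa7 and 20 in the Msx1 window. The median was 12 over the 15 HOX members with an entry and 6 over all promoters.

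Of the tested HOX genes, 5 were lower in Ly6C+ than in Ly6C- pCAFs and 17 did not pass, and the 5 lie in clusters A and B. A gene was tested where its mean over the 6 libraries was at least 5, which 22 of 27 HOX genes and 52 of 71 members reached. Hoxb9 and Hoxa4 did so with a mean under 5 in Ly6C+ pCAFs, that is through the Ly6C- group only. The test was limma on log2(value + 1) across 9646 genes, with Benjamini-Hochberg adjusted p under 0.05, and log2 fold changes are Ly6C+ minus Ly6C-. The 5 of 22 that fell (22.7%) were Hoxb9, Hoxb8, Hoxa5, Hoxa9 and Hoxb2, where 7.66% of all tested genes fell. None rose, where 9.41% of all tested genes rose and 17.1% changed in either direction. At an unadjusted p under 0.05, which 28.5% of all tested genes reached, 9 HOX genes were lower and 0 higher. The edgeR test called 5 lower and 0 higher, against 8.25% and 9.59% of all tested genes, and DESeq2 4 and 0, against 7.42% and 8.64%. The median log2 fold change was −0.46, with 20 of 22 values negative, beside a median of 0.00 and 50.1% negative over all tested genes. With no filter the test called the same number, 5 of 27 lower and none higher. For 13 of the 22 the groups were apart, always with the Ly6C- libraries higher, where 16.1% of all tested genes were apart in that direction, 17.1% in the other and 33.1% in either. Without Ly6C+ replicate 1 only Hoxb9 of the 22 passed, and without Ly6C- replicate 2 only Hoxb9 and Hoxa9. With libraries scaled to their totals, which shifts the median of all genes by −0.19, 9 HOX genes passed as lower and 0 as higher, where 12.6% and 7.52% of all tested genes did so.

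**Figure D1:**
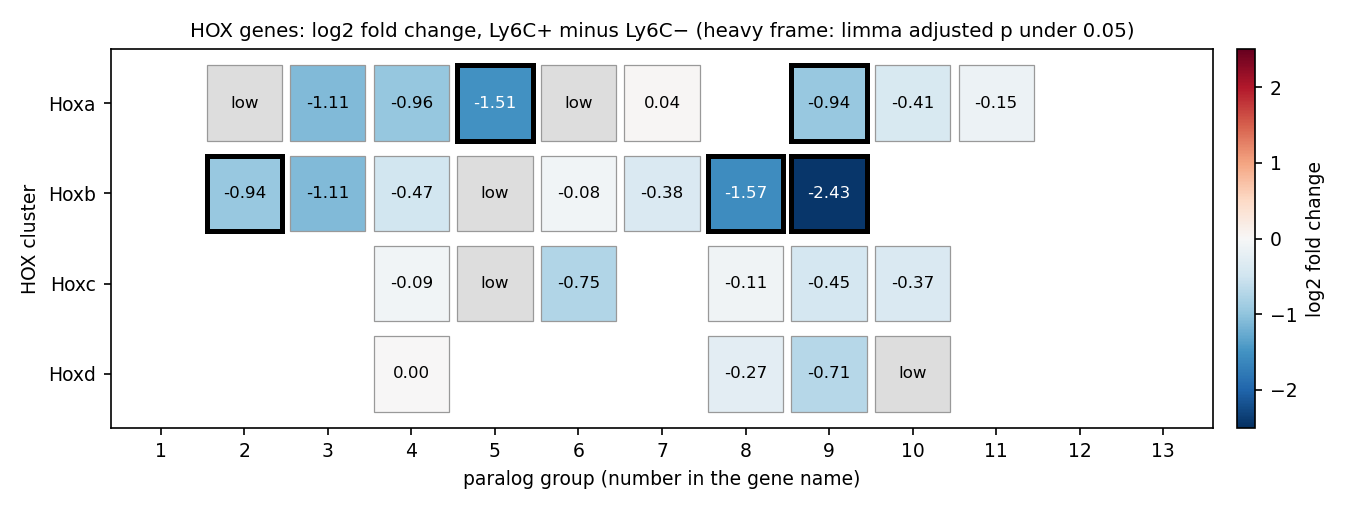
Log2 fold change (Ly6C+ minus Ly6C-) of each HOX gene of the table, by cluster (rows) and paralog group (columns); blue is lower in Ly6C+ pCAFs, heavy frames mark limma adjusted p under 0.05, and grey cells marked low had a mean under 5 and were not tested. The 5 framed genes lie in clusters A and B, and Hoxb9 has the lowest value at −2.43.

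In cluster B, Hoxb9, Hoxb8 and Hoxb2 fell, and Hoxb9 and Hoxb8 are neighbours on chromosome 11. Hoxb9, which acts in the thoracic skeleton and, with its paralogs, in the mammary gland, stood at 1.83, 1.503 and 2.32 in the Ly6C+ libraries and at 9.84, 17.9 and 17.04 in the Ly6C- libraries. Every Ly6C- value was over 4 times the highest Ly6C+ value, although the Ly6C+ values rest on 8 reads in all. Hoxb9 was 7.92-fold higher among Ly6C- pCAFs, at a log2 fold change of −2.43 (SE 0.44, limma adjusted p = 0.00275) and passed in each of 20 alternatives. With means of 1.88 in Ly6C+ and 14.9 in Ly6C- pCAFs, it met the filter through the Ly6C- group only. It lies at chr11:96271457-96276595 on the plus strand.

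Hoxb8, known from thoracic patterning and blood progenitors, stood at 3.66, 6.77 and 4.64 in the Ly6C+ libraries and at 15.7, 19.6 and 14.4 in the Ly6C- ones. The groups were apart by a wide gap, with the 3 Ly6C- libraries close together. The fold was 3.30 (log2 fold change −1.57, SE 0.37; limma adjusted p = 0.0123), and leaving out Ly6C+ replicate 1 (adjusted p = 0.0506) or Ly6C- replicate 2 (0.0704) ended the call, over a range of 0.00571 to 0.0704 in 20 alternatives. It lies at chr11:96281905-96285315, and its promoter is the one printed above with the PBX-HOX match.

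Hoxb2, which acts in the hindbrain, lies at the other end of the cluster B members examined here (chr11:96350525-96354012, plus strand). It stood at 39.0, 69.9 and 52.5 in the Ly6C+ libraries and at 87.6, 123 and 97.0 in the Ly6C- ones. All Ly6C- libraries were higher, by a mean of 1.91-fold (log2 fold change −0.94, SE 0.24; limma adjusted p = 0.0212). This call ended without Ly6C+ replicate 1 (0.0864), Ly6C+ replicate 3 (0.0550) or Ly6C- replicate 2 (0.109), and without the mean-variance trend (0.0576). The antisense gene Hoxb3os shares exonic bases with the ends of Hoxb2 and Hoxb3, and whether reads were counted by strand is not given in the sources used here. Hoxb3os itself had a mean of 1.88 in Ly6C+ and 1.94 in Ly6C- pCAFs.

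The other tested genes of cluster B did not pass. Hoxb3 stood at 10.4, 6.01 and 6.18 in the Ly6C+ libraries and at 20.7, 12.8 and 18.4 in the Ly6C- ones, without overlap (log2 fold change −1.11; limma adjusted p = 0.0572, and 0.0265 to 0.173 in 20 alternatives, of which 5 called it). Hoxb4 was narrowly apart, at 24.4, 12.8 and 18.5 in the Ly6C+ libraries and at 26.6, 24.7 and 24.9 in the Ly6C- ones. Hoxb7 overlapped, at 35.99, 36.8 and 20.1 against 47.2, 48.5 and 26.2. Hoxb6 had means of 14.2 ± 3.58 in Ly6C+ and 15.6 ± 5.62 in Ly6C- pCAFs (SD, n = 3). Hoxb5 was under the filter, on 7 and 8 reads.

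In cluster A, Hoxa5 and Hoxa9 fell while Hoxa7, which lies between them on chromosome 6, was level. Hoxa5, which patterns the lung and the neck and upper chest skeleton, stood at 10.98, 12.8 and 12.4 in the Ly6C+ libraries and at 49.2, 51.9 and 18.4 in the Ly6C- ones. The Ly6C+ libraries agreed closely, while Ly6C- replicate 3 was well below the other two and still above all Ly6C+ values. Hoxa5 was 3.31-fold higher among Ly6C- pCAFs, at a log2 fold change of −1.51 (SE 0.38; limma adjusted p = 0.0177), and −1.99 without Ly6C- replicate 3. Leaving out Ly6C+ replicate 1 (0.0722) or Ly6C- replicate 2 (0.0977) ended the call, as did thinning all libraries to the smallest (0.0999), over a range of 0.00048 to 0.0999. It lies at chr6:52201754-52204587 on the minus strand.

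Hoxa9, which acts in limbs, blood progenitors and the mammary gland, stood at 18.9, 16.5 and 18.5 in the Ly6C+ libraries and at 37.4, 31.5 and 38.0 in the Ly6C- ones. Both groups were tight and did not overlap. The fold was 1.98 (log2 fold change −0.94, SE 0.24; limma adjusted p = 0.0188), and the call ended without Ly6C+ replicate 1 (0.0511), Ly6C+ replicate 2 (0.0746) or Ly6C- replicate 1 (0.0513), and in DESeq2 (0.0622). Its annotation (chr6:52223100-52231089, minus strand) also holds the microRNA gene Mir196b. Hoxa7 stood at 39.6, 34.6 and 31.7 in the Ly6C+ libraries and at 39.4, 29.8 and 34.1 in the Ly6C- ones, and the groups interleaved (log2 fold change 0.04, SE 0.23; limma adjusted p = 0.940).

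Of the further cluster A genes, Hoxa3 stood at 5.49, 5.26 and 8.50 in the Ly6C+ libraries and at 19.7, 15.3 and 10.5 in the Ly6C- ones, without overlap. It missed the threshold (−1.11 on the log2 scale, with a limma adjusted p of 0.0706, and 0.0366 to 0.211 in 20 alternatives, of which 3 called it). The more posterior Hoxa10 stood at 28.7, 31.6 and 30.9 against 48.2, 36.6 and 38.0, again apart, with an adjusted p of 0.267 in limma. Hoxa11, with its antisense gene Hoxa11os, had means of 18.4 ± 3.79 and 21.3 ± 7.75 in Ly6C+ and Ly6C- pCAFs (SD, n = 3). Hoxa4 had means of 3.59 ± 2.10 and 7.95 ± 3.65. Hoxa2 was under the filter on 8 and 12 reads, and Hoxa6 had 1 read in all, in a Ly6C+ library.

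No gene of clusters C and D passed, among 5 and 3 tested, where limma called 17.1% of all tested genes. So few genes cannot set these clusters apart from A and B. At an unadjusted p under 0.05, which 28.5% of all tested genes reached, limma had 2 of 5 tested cluster C genes and 0 of 3 cluster D genes. The edgeR and DESeq2 tests called none. Hoxc10, a gene of the lumbar level, stood at 101.2, 77.4 and 77.3 in the Ly6C+ libraries and at 101.4, 116 and 113 in the Ly6C- ones, so that the groups nearly touched. Hoxc9 stood at 53.7, 58.6 and 64.9 against 80.7, 84.2 and 77.4, and the groups were apart (log2 fold change −0.45, SE 0.19; limma adjusted p = 0.137). Hoxc6, a gene of thoracic mesenchyme, stood at 67.7, 48.9 and 44.8 against 72.8, 81.7 and 122, with its highest value in Ly6C- replicate 3 (log2 fold change −0.75, SE 0.25; limma adjusted p = 0.0636, and 0.0166 to 0.182 in 21 alternatives, of which 4 called it). Hoxc8, which acts at the mammary line, interleaved at 34.2, 25.6 and 16.2 against 21.7, 31.5 and 26.2. So did Hoxc4, at 22.6, 24.1 and 20.9 in the Ly6C+ libraries and at 20.7, 23.0 and 28.8 in the Ly6C- ones. In cluster D, Hoxd8 stood at 18.9, 31.6 and 12.4 against 26.6, 23.8 and 21.0, and the groups overlapped. Hoxd9 had means of 7.83 ± 0.974 in Ly6C+ and 13.7 ± 3.70 in Ly6C- pCAFs, and Hoxd4 7.59 ± 3.91 and 7.03 ± 0.565 (SD, n = 3). Hoxc5 (9 and 5 reads) and Hoxd10 (14 and 13 reads) were under the filter.

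**Figure D2:**
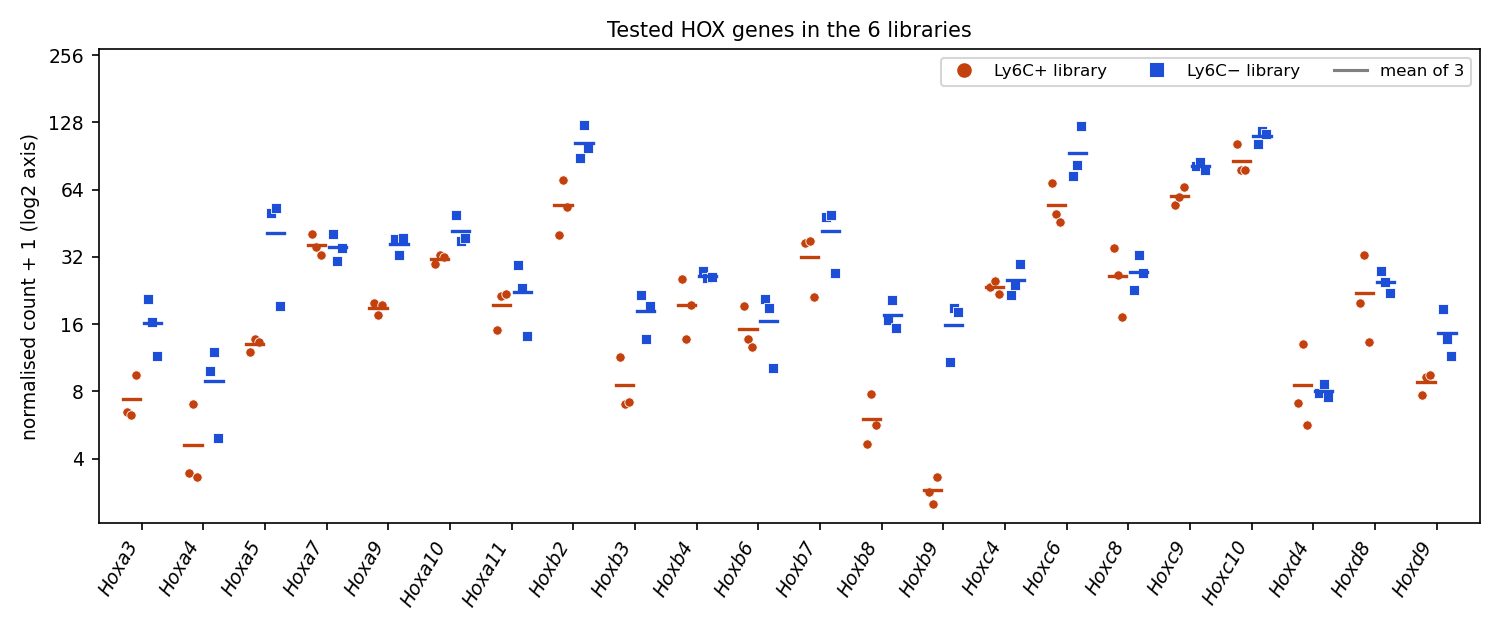
Normalised count plus 1, on a log2 axis, of the 22 tested HOX genes in each Ly6C+ library (circles) and Ly6C- library (squares), with lines at the group means. The Ly6C- points lie above all Ly6C+ points for 13 genes, among them Hoxb9, Hoxb8, Hoxa5, Hoxa9 and Hoxb2, and the groups overlap for the other 9.

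Summed over all members of a cluster, including those under the filter, the difference between the groups was 1.76-fold in cluster B and 1.58-fold in cluster A, and smaller in clusters C and D. The 8 genes of cluster B summed to 135, 149 and 117 in the Ly6C+ libraries and at 230, 268 and 208 in the Ly6C- ones. The 9 genes of cluster A summed to 123, 129 and 127 against 236, 203 and 157. Neither cluster overlapped between the groups. The 6 genes of cluster C summed to 281, 238 and 225 in the Ly6C+ libraries and at 299, 337 and 370 in the Ly6C- ones, 1.35-fold higher in the latter. The 4 genes of cluster D summed to 34.8, 52.6 and 31.7 against 59.1, 46.8 and 40.6, which overlap (ratio 1.23). No p is given for these sums. Counted as transcript ends, cluster C made up 45.3% ± 3.54 of HOX counts in Ly6C+ and 41.1% ± 5.87 in Ly6C- pCAFs, and cluster B 24.4% ± 1.59 and 28.7% ± 2.34 (SD, n = 3). By position within the clusters the ratio varied less, at 1.67 for paralog groups 1 to 4, 1.46 for 5 to 8 and 1.43 for 9 and above. Whether the clusters differ from each other in their change was not tested.

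**Figure D3:**
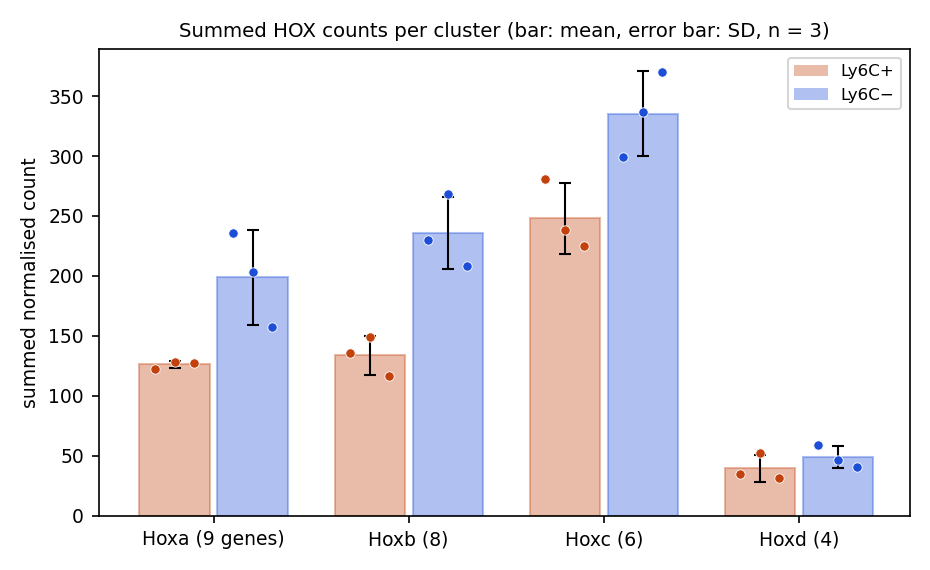
Summed normalised count of all HOX genes of each cluster, with bars at the group mean, error bars of 1 SD (n = 3) and a point for each library. Ly6C- points lie above all Ly6C+ points in clusters A, B and C, and the groups overlap in cluster D.

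Genes of other cell types also differed between the groups, and their part in the HOX and other differences was not tested. The counts below stand beside 9.41% of all tested genes called higher and 7.66% called lower, and the fibroblast markers given above belong with them. Of 8 tested pericyte and smooth muscle markers 5 were lower in Ly6C+ pCAFs (Cspg4, Myh11, Des, Mcam and Notch3) and 1 was higher (Kcnj8). Sums over the 10 listed genes were 315 to 444 in Ly6C+ and 872 to 1372 in Ly6C- libraries. Cspg4 had means of 26.9 and 367 in Ly6C+ and Ly6C- pCAFs, and Kcnj8 had 118 and 30.1. Higd1b of that list was at 0 in every library, and Rgs5 at or below 5.24. Of 4 tested epithelial markers limma called 2 lower (Krt14 and Krt19), edgeR 4 and DESeq2 2, and 4 were lower at an unadjusted p under 0.05, with sums of 12.8 to 47.9 against 119 to 360 over 10 genes, while Cdh1, Cldn7 and Elf3 stayed at or below 1.97. Endothelial markers summed to 29.3 to 47.0 and 39.3 to 176 over 7 genes. Of 5 tested, 3 were lower (Kdr, Egfl7 and Esam) and 1 higher (Tek) in Ly6C+ pCAFs, and Pecam1 stayed at or below 4.25. Macrophage markers summed to 107 to 324 in Ly6C+ and 42.5 to 130 in Ly6C- libraries over 9 genes (1 of 5 higher), and granulocyte markers to 6.18 to 701 and 2.62 to 5.91 over 6 genes, with the top value in Ly6C+ replicate 1. Of 3 tested granulocyte markers limma called 0, with 2 at an unadjusted p under 0.05, edgeR 1 and DESeq2 0. Adipocyte markers summed to 105 to 178 and 11.1 to 19.7 over 4 genes, 2 of 2 higher (Fabp4 and Lpl), with Adipoq at or below 0.773. The Schwann list summed to 19.5 to 30.1 and 9.18 to 14.8 over 4 genes (0 of 2 called by limma, edgeR or DESeq2 and 0 at an unadjusted p under 0.05), and the skeletal muscle list to 13.1 to 22.0 and 35.4 to 86.6 over 4 genes, where Acta1 was the 1 of 2 that was lower. Of the lymphocyte list only Cd3e was analysed, at 88.7 to 165 against 10.5 to 19.7 (1 of 1 higher). Among the markers limma called, Myh11, Mcam, Krt14, Krt19, Egfl7, Esam and Acta1 met the filter through the Ly6C- group only. Tek met it through the Ly6C+ group only.

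Genes of the PBX and MEIS proteins, which bind DNA with HOX factors, did not pass. Pbx2 stood at 41.5, 44.3 and 30.1 in the Ly6C+ libraries and at 59.1, 37.4 and 47.2 in the Ly6C- ones, and the groups overlapped. Pbx3 was at 18.9, 21.8 and 27.04 against 27.6, 37.4 and 35.4 and was just apart, with a log2 fold change of −0.55 (SE 0.26; limma adjusted p = 0.187). Meis1 stood at 22.0, 24.1 and 24.7 in the Ly6C+ libraries and at 26.6, 25.5 and 28.8 in the Ly6C- ones, close in both groups, with a log2 fold change of −0.19 (SE 0.24; limma adjusted p = 0.675). Meis3 stood at 43.3, 39.8 and 21.6 in the Ly6C+ libraries and at 28.5, 23.8 and 11.8 in the Ly6C- ones, with the lowest value of each group in replicate 3. Of these 4 PBX and MEIS genes limma called 0, none had an unadjusted p under 0.05, and edgeR and DESeq2 called 0. Their standard errors ran from 0.24 to 0.37 on the log2 scale. Pbx4 was under the filter on 6 and 2 reads. The related TALE homeobox genes Tgif1 and Tgif2, corepressors in TGF-beta signalling, had means of 85.9 ± 31.1 and 26.7 ± 7.91 in Ly6C+ and 71.4 ± 13.02 and 33.0 ± 10.7 in Ly6C- pCAFs (SD, n = 3), and neither passed.

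Outside the HOX clusters, 1 of 30 tested members rose (Irx1) and 5 fell (Msx1, Tbx3, Cux1, Irx3 and Tbx2). That is 16.7% lower and 3.33% higher, against 7.66% and 9.41% over all tested genes. In either direction 20% were called, near the 17.1% of all tested genes, and 21.2% of all 52 tested members were called. The median log2 fold change of these 30 was 0.08. All 6 calls held in every one of the 20 or 21 alternatives that tested them. The 6 were called by edgeR and DESeq2 as well.

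The Iroquois genes, which pattern several organs and lie in a pair of clusters, went both ways. Irx1, on chromosome 13 (71957921 to 71963723, minus strand), stood at 142, 120.3 and 106 in the Ly6C+ libraries and at 37.4, 33.2 and 61.6 in the Ly6C- ones. The lowest Ly6C+ value was well above the highest Ly6C- value, that of replicate 3. Irx1 was 2.79-fold higher among Ly6C+ pCAFs, at a log2 fold change of 1.499 (SE 0.25; limma adjusted p = 0.00171). Its cluster neighbour Irx2 stood at 22.6, 12.8 and 17.8 against 13.8, 12.8 and 27.5, with full overlap, and Irx4 had 1 read in all.

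Irx3, of the other cluster (chr8:91798525-91802067, minus strand) and known from fat and kidney development, stood at 73.2, 73.7 and 83.4 in the Ly6C+ libraries and at 135, 162 and 177 in the Ly6C- ones. The groups were far apart in the direction opposite to Irx1. Irx3 was 2.06-fold higher among Ly6C- pCAFs, at a log2 fold change of −1.03 (SE 0.18; limma adjusted p = 0.00250). Its cluster neighbour Irx5 lay on the same side at 18.3, 31.6 and 24.7 against 34.4, 39.1 and 39.3 without a call (−0.61 on the log2 scale, SE 0.26, limma adjusted p = 0.147). The antisense gene Irx3os shares exonic bases with Irx3. Summed over the 5 Irx genes, the groups stood at 242 ± 12.6 and 258 ± 43.3 (SD, n = 3).

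Among the T-box genes, the closely related repressor genes Tbx2 and Tbx3 were both lower in Ly6C+ pCAFs. Tbx3, which the mammary bud needs, stood at 23.8, 24.8 and 17 in the Ly6C+ libraries and at 76.8, 77.4 and 55.1 in the Ly6C- ones. Replicate 3 was the lowest in both groups, and the groups stayed apart. Tbx3 was 3.19-fold higher among Ly6C- pCAFs, at a log2 fold change of −1.63 (SE 0.25; limma adjusted p = 0.000858), at chr5:119670669-119684724 on the plus strand. Tbx2 stood at 11.6, 9.77 and 4.64 in the Ly6C+ libraries and at 27.6, 23.8 and 28.8 in the Ly6C- ones. It was 3.09-fold higher among Ly6C- pCAFs, at a log2 fold change of −1.60 (SE 0.35; limma adjusted p = 0.00943), at chr11:85832551-85841948 on the plus strand.

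Tbx2 and Tbx3 each have a limb gene as chromosomal neighbour, and these were low. Tbx5, beside Tbx3, stood at 6.10, 1.503 and 13.1 against 5.91, 2.55 and 3.93, and Tbx4, beside Tbx2, was under the filter on 8 and 13 reads. Tbx15, a gene of skin and trunk mesenchyme, stood at 77.5, 92.5 and 96.6 in the Ly6C+ libraries and at 78.7, 45.9 and 104 in the Ly6C- ones and overlapped widely (log2 fold change 0.29, SE 0.28; limma adjusted p = 0.555). Tbx18, which also marks pericytes, stood at 6.71, 17.3 and 20.1 against 20.7, 19.6 and 23.6 and did not pass (limma adjusted p = 0.327), beside the pericyte list values above. Tbx1 and Tbx6 had means of 9.93 ± 5.51 and 9.77 ± 2.31 in Ly6C+ and 6.94 ± 2.24 and 9.90 ± 5.39 in Ly6C- pCAFs (SD, n = 3).

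Msx1, a homeobox gene that keeps mesenchyme undifferentiated, had the smallest adjusted p among the members. It stood at 88.4, 81.9 and 49.5 in the Ly6C+ libraries and at 300.2, 195 and 250.4 in the Ly6C- ones. The lowest Ly6C- value was over 2 times the highest Ly6C+ value. Msx1 was 3.39-fold higher among Ly6C- pCAFs, at a log2 fold change of −1.77 (SE 0.25; limma adjusted p = 0.000531), at chr5:37820485-37824583 on the minus strand. Cux1, which encodes a CCAAT-displacement protein, stood at 86.0, 82.7 and 92.7 in the Ly6C+ libraries and at 180.1, 163 and 185 in the Ly6C- ones. Both groups were tight, and the fold of 2.02 passed in limma (adjusted p = 0.00159) at −1.01 on the log2 scale (SE 0.17). Cux1 lies at chr5:136248135-136567490 on the minus strand, on the same chromosome as Msx1 and Tbx3 but far from both. Its paralog Cux2 was at 24.4, 28.6 and 17 against 9.84, 11.9 and 17.04 without a call (0.81 on the log2 scale, SE 0.32, limma adjusted p = 0.121).

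**Figure D4:**
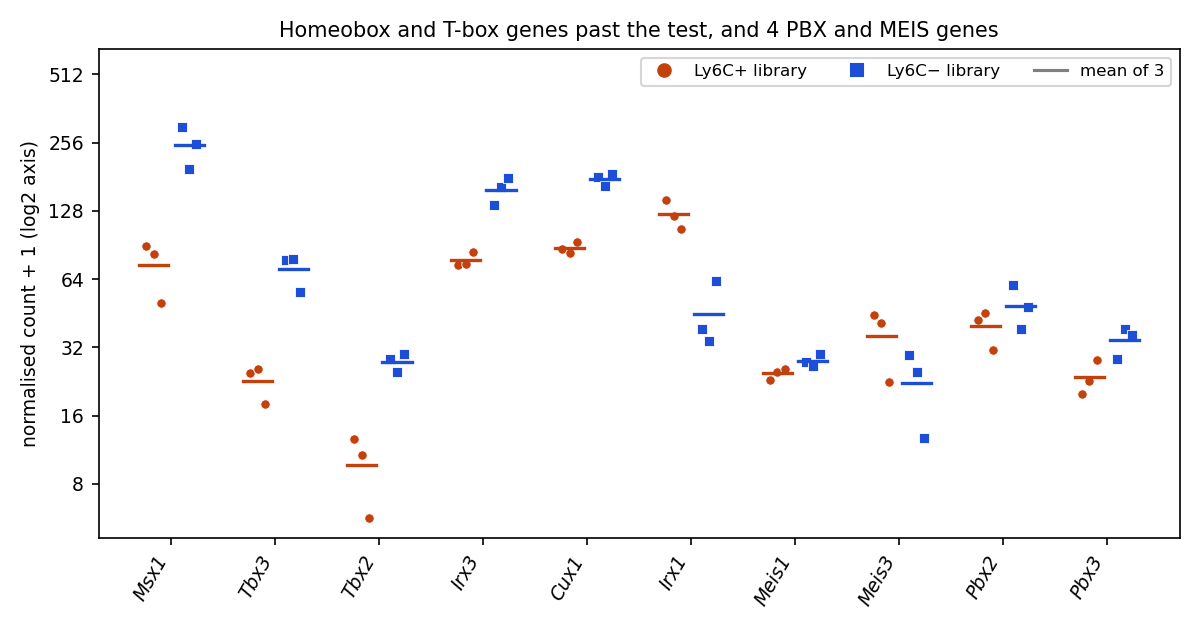
Normalised count plus 1, on a log2 axis, of the 6 members outside the HOX clusters that passed the test and of 4 PBX and MEIS genes, for each Ly6C+ library (circles) and Ly6C- library (squares), with lines at the group means. Msx1, Tbx3, Tbx2, Irx3 and Cux1 lie higher in Ly6C- libraries and Irx1 in Ly6C+ libraries, with no overlap.

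The remaining tested members did not pass. Zhx3 and Zhx1, zinc-finger homeobox genes, lay on opposite sides, Zhx3 at 10.3 ± 3.04 and 19.5 ± 1.16 and Zhx1 at 9.82 ± 4.44 and 3.21 ± 2.14 in Ly6C+ and Ly6C- pCAFs (SD, n = 3). Zhx2 was level at 23.6 ± 4.60 and 23.3 ± 8.27. Zfhx3 stood at 32.3 ± 5.38 and 18.8 ± 7.57 (limma adjusted p = 0.108, and 0.0234 without Ly6C- replicate 1). Lhx8 was at 12.9 ± 2.13 and 5.57 ± 4.41 (limma adjusted p = 0.112, and 0.0157 without Ly6C- replicate 3). The homeobox gene Six5 had means of 60.7 ± 4.51 in Ly6C+ and 55.4 ± 9.01 in Ly6C- pCAFs. Pitx1, a hindlimb gene, ranged from 35.3 to 68.3 and from 14.4 to 74.9, and Alx4 stood at 15.2 ± 0.552 and 21.8 ± 6.11.

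The 19 members under the filter included Hoxa2, Hoxa6, Hoxb5, Hoxc5 and Hoxd10, given above with Irx4, Pbx4 and Tbx4, and Dlx1, Dlx2, Dlx3, Dlx4, Lhx6, Six2, Six4, Zfhx2 and Zfhx4. Dlx1 and Dlx2, genes of craniofacial and forebrain development, had no read in any library, which allows up to 3 of 11618082 reads (counting error only). Dlx3, Dlx4, Lhx6, Six2, Six4, Zfhx2 and Zfhx4 had 4 to 28 reads each over the 6 libraries. Of the 52 tested members, Hoxa4, Hoxb9, Tbx5 and Zhx1 reached a mean of 5 in 1 group only.

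**Figure D5:**
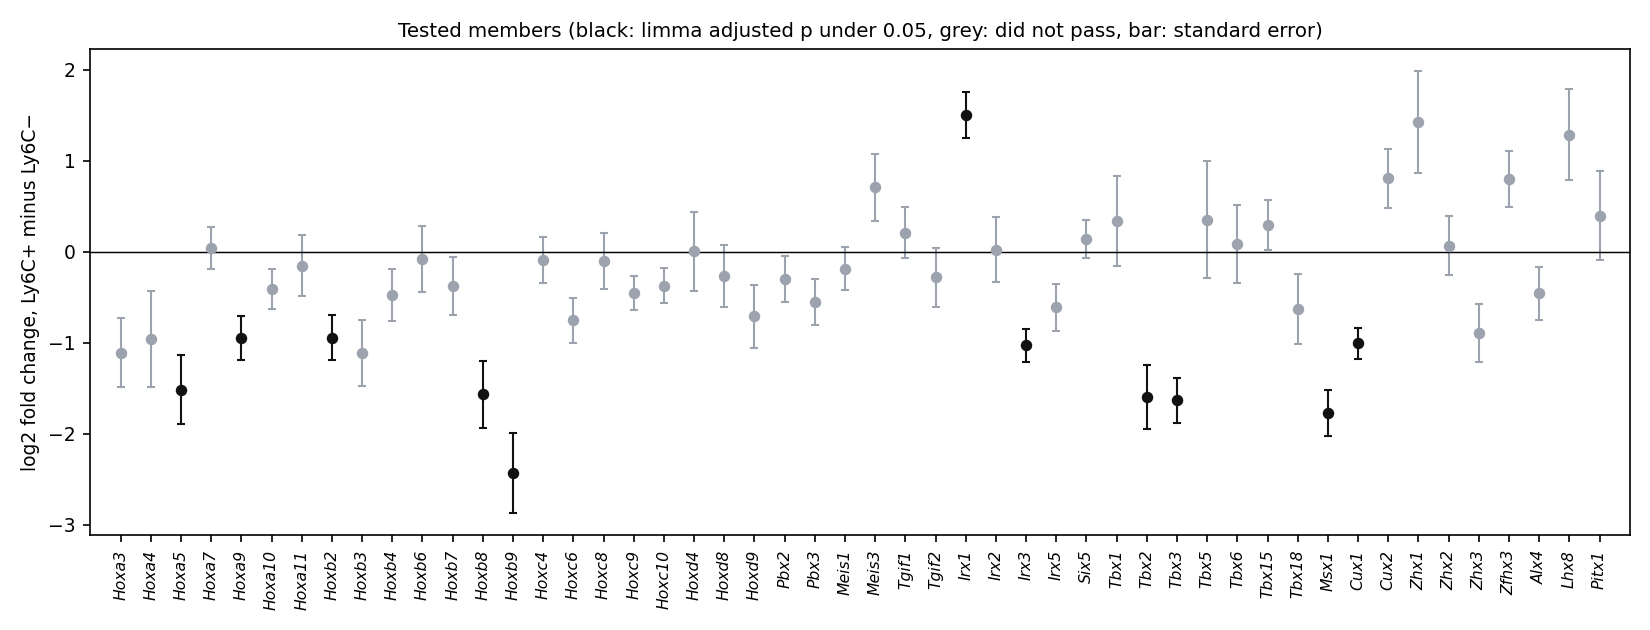
Log2 fold change (Ly6C+ minus Ly6C-) of 50 of the 52 tested members by family, with bars of 1 standard error; black points passed at limma adjusted p under 0.05 and grey points did not. All black HOX points lie below 0, as do Irx3, Tbx2, Tbx3, Msx1 and Cux1, while Irx1 lies above at 1.499.

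Genes that work with these factors, or that hold HOX clusters silent or active, were taken from lists. The lists were chosen with earlier results of these data known, so their shares are descriptions and not independent results. The partner list is broad and also holds mesenchyme factors such as Osr1 and Osr2. Of its 34 tested genes 9 rose in Ly6C+ pCAFs and none fell (26.5% higher, against 9.41% higher and 7.66% lower over all tested genes), with a median log2 fold change of 0.31. In the lower direction 2 had an unadjusted p under 0.05, and edgeR and DESeq2 each called 1 lower. Osr1 and Osr2, odd-skipped factors of limb and connective tissue mesenchyme, stood at 766 ± 40.5 and 426 ± 80.6 in Ly6C+ and at 122 ± 50.0 and 98.0 ± 18.4 in Ly6C- pCAFs (SD, n = 3), 6.26-fold and 4.34-fold higher in the former. Klf4, a zinc-finger factor that can act with PBX and MEIS proteins, was 5.35-fold and Lmo2, a LIM-only adaptor, 8.11-fold higher in Ly6C+ pCAFs. The 9 include Eya2 and Eya4, coactivator genes, the corepressor genes Tle2 and Tle5, and Ssbp2, whose product joins LIM complexes, all 5 named after their values were seen. Of the 9, Lmo2 and Eya4 met the filter through the Ly6C+ group only. Their Ly6C- means were 4.07 and 2.03, on 12 and 5 reads. The calls of Tle5, Eya4 and Ssbp2 ended without Ly6C+ replicate 1 (limma adjusted p = 0.106, 0.174 and 0.118) and without other single libraries.

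Of 24 tested homeobox and T-box genes outside the member rule, 3 rose (Barx2, Tshz2 and En1) and 1 fell (Meox1), with a median of 0.29. These 4 are 16.7% of the list, near the 17.1% of all tested genes that changed. Meox1, a mesoderm homeobox gene, stood at 15.2, 12.8 and 26.3 in the Ly6C+ libraries and at 64.0, 63.8 and 102 in the Ly6C- ones, 4.24-fold higher in the latter (log2 fold change −2.05, SE 0.31; limma adjusted p = 0.000794). Barx2, a homeobox gene of mesenchyme and epithelium, stood at 20.1, 8.27 and 41.0 against 0.984, 0 and 1.31, which is 97 and 2 reads, and its call ended with all libraries thinned to the smallest (adjusted p = 0.103 in limma). With means of 23.1 in Ly6C+ and 0.765 in Ly6C- pCAFs, Barx2 met the filter through the Ly6C+ group only. Tshz2 was 2.25-fold higher in Ly6C+ pCAFs. The engrailed gene En1, a marker of dermal fibroblast lineages, was at 61.6, 72.2 and 39.4 against 26.6, 23.0 and 35.4, with a limma adjusted p of 0.0323. The call was lost without Ly6C+ replicates 1 or 2 or Ly6C- replicates 1 or 2 (0.123, 0.150, 0.0578 and 0.132) and with libraries scaled to their totals (0.0609).

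Polycomb genes, which keep HOX genes silent, rose for Cbx6 and Cbx7 and fell for Phc2 among 23 tested, with a median log2 fold change of 0.20. These 3 are 13.04% of the list, under the 17.1% of all tested genes that changed. Cbx6 had a mean of 291 ± 29.6 in Ly6C+ and 154 ± 9.63 in Ly6C- pCAFs (SD, n = 3), 1.89-fold higher in the former, and passed in each of 21 alternatives. Cbx7 (20.3 ± 2.02 against 8.08 ± 3.95; limma adjusted p = 0.0375) lost its call without any 1 of 5 libraries. Phc2 (113 ± 28.7 against 214 ± 49.3; adjusted p = 0.0210 in limma) ceased to pass without replicate 1 or 3 of Ly6C+, or 1 or 2 of Ly6C- (0.0569, 0.0731, 0.0601 and 0.0770). Of 21 tested genes of the trithorax and MLL complexes and H3K27 demethylases, which keep HOX genes active, 1 rose: Kdm6b, an H3K27 demethylase, at 564 ± 100 against 267 ± 27.9 (2.12-fold; limma adjusted p = 0.00154). That is 4.76% of the list, also under 17.1%, and its median was 0.00.

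Among noncoding HOX transcripts none of 3 tested passed in limma, edgeR or DESeq2, and none had an unadjusted p under 0.05. Hotairm1, from the front end of cluster A, stood at 35.4, 64.6 and 54.1 in the Ly6C+ libraries and at 65.9, 90.2 and 61.6 in the Ly6C- ones, with overlap. Hoxa11os stood at 22.0, 24.1 and 31.7 against 27.6, 20.4 and 18.4, and Mira, also of cluster A, at 26.8, 21.0 and 18.5 against 23.6, 26.4 and 6.56. Hoxaas2, Hoxaas3 and Hoxb3os were under the filter. In 13 of the 27 HOX genes an exon of another annotated gene shares bases, on the same strand for 7 and on the opposite strand for 8, so that reads near those places may be divided uncertainly.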

How the data were processed

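Values are signal: read counts that the authors normalised with 1 factor for each library before they were deposited. The submitters' processing notes list bcl2fastq, STAR (2.4.2a), HTSeq and mm10. How the factors were made, which annotation served, and how strand, molecular tags and gene filters were handled are not given in the sources used here. All values were whole multiples of 1 step per library (100% within 0.001), which gave back whole reads for the count tests.

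Members and lists were chosen with earlier results of these data known. Genes with a mean of at least 5 were tested with limma 3.58.1 (R 4.3.3) on log2(value + 1), with a mean-variance trend, no block, two-sided, adjusted over 9646 genes. Members past the test, and HOX, PBX and MEIS members averaging 20 or more, are shown in all 6 libraries. Of each list up to 4 genes with the smallest p, and all of a count of 5 or fewer, are named. Alternatives were other pseudocounts, filters, scalings and priors, a replicate block, each library left out, edgeR 4.0.16 and DESeq2 1.42.0. Thinning was added after the data were seen. The script was tested on simulated data. Coordinates and overlaps came from GENCODE M21 (mm10) for all 71 members, and promoters from RefSeq for 41 of them. Tables used Python 3.11.15, numpy 2.4.6, pandas 2.3.3 and matplotlib 3.10.9. Counts over all members include some whose own values are not reported here.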

Additional observations from a re-analysis of the deposited data

How the results depend on the processing

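No HOX member was called higher in any of 23 alternatives. The number called lower, 5, was 3 with a mean of at least 20 (which tests fewer genes), 9 with libraries scaled to their totals, 1 and 8 at adjusted p thresholds of 0.01 and 0.1, and 1 to 6 with 1 library left out. Members called lower, 10, were 6 and 14 at thresholds of 0.01 and 0.1, 15 with libraries scaled to their totals, and 6 to 11 with 1 library left out. Members called higher, 1, were 1 to 2 with 1 library left out. All genes called, 1647, were 959 and 2150 at thresholds of 0.01 and 0.1, and 1121 to 1728 with 1 library left out. The summed ratios of Ly6C- over Ly6C+ pCAFs stayed above 1. With libraries scaled to their totals they moved to 1.81 in cluster A, 2.03 in cluster B, 1.55 in cluster C and 1.72 over all HOX members. The ratio of cluster D rose under that scaling as well. With 1 library left out they were 1.43 to 1.74 in cluster A, 1.64 to 1.87 in B, 1.28 to 1.45 in C, 1.10 to 1.47 in D and 1.43 to 1.53 over all. Except where the scaling, the threshold or the number of genes or libraries sets the difference, the cause was not tested. The 39 single genes followed were members with an unadjusted limma p under 0.05 and list genes past the test. A change of direction was thus unlikely among them, and of their 884 values none changed direction, 63 lost and 20 gained a call. Tested HOX genes outside this set did change direction, such as Hoxb6 (−0.40 to 0.37) and Hoxc8 (−0.34 to 0.17 on the log2 scale). The number of tested HOX genes with a negative log2 fold change, 20, was 17 to 21 with 1 library left out. The replicate numbers do not mark a shared animal or day in the labels. Deviations of same-numbered libraries correlated at 0.13, 0.05 and 0.17, each the best match of its library, a hint from the data only. With the replicate block limma called 11 members lower and 1 higher, 6 of them HOX members, and 2088 genes in all; edgeR with the block called 12 and 1, 7 of them HOX members. Low counts limit the smaller HOX genes.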

Other observations

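Genes that flank the HOX clusters gave no call, but the 5 tested are too few to set the flanks apart from the clusters. Within 200 kb outside the cluster ends, as far as the table's HOX members reach, lay Skap2 beside cluster A, Atp5g1 and Skap1 beside B, Smug1 and Cbx5 beside C and Mtx2 beside D, a set chosen after the data were seen. Of the 5 tested none passed in limma (0 had an unadjusted p under 0.05), edgeR or DESeq2, and their median log2 fold change was −0.01, where limma called 17.1% of all tested genes. Atp5g1, a mitochondrial ATP synthase gene, had the value farthest from 0, at 1.48 (SE 1.02), with means of 25.1 ± 6.48 in Ly6C+ and 18.1 ± 16.9 in Ly6C- pCAFs (SD, n = 3). Skap2, an adaptor protein gene next to cluster A, had a mean of 75.6 ± 1.503 in Ly6C+ and 88.0 ± 4.198 in Ly6C- pCAFs, and Mtx2, a mitochondrial import gene next to cluster D, at 94.8 ± 27.2 and 87.3 ± 30.9 (SD, n = 3). Skap1 was under the filter at means of 0.868 and 1.38.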
